A study of Mus musculus with 4 samples.

Results

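The clustered histone genes of the mouse are the genes whose symbols begin with Hist1h, Hist2h, Hist3h or Hist4h. They were taken as the rows with such a symbol that reached 10 or more expected counts in at least 2 libraries. This left 66 genes of 68 listed, out of 24369 genes in all. They comprised 6 H1, 17 H2A, 19 H2B, 12 H3 and 12 H4 genes. The 2 genes left out were *Hist1h2aa*, with 0, 3.25, 0 and 4.03 expected counts, and *Hist1h4n*, with 4.22, 0, 0 and 0. Values of the 4 libraries are always given in the order EV RV 1, EV RV 2, Tox RV 1 and Tox RV 2, where the number is that of the replicate.

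RNA was measured by RNA-seq in GFP+ CD4 T cells from the spleens of WT C57BL/6 mice. The cells were activated as naive cells without polarizing cytokines, with anti-CD3, anti-CD28 and IL-2 in the culture. The EV RV group (2 libraries) was transduced on day 2 with the MSCV-IRES-eGFP retrovirus, and the Tox RV group (2 libraries) with the same vector carrying Tox. All cells of both groups were rested, restimulated on day 5 for 5 h and sorted for GFP. For this restimulation, the study's methods name biotinylated anti-CD3 with streptavidin, whereas its results name anti-CD3 and anti-CD28. Expression of Tox came from the retroviral vector, in cells that carried their own *Tox* gene, and the 2 libraries of a group came from 2 mice.

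Most clustered histone genes are expressed in S phase, when new DNA has to be packed into nucleosomes. H2A, H2B, H3 and H4 form the core of the nucleosome, and H1 binds the linker DNA outside it. Their mRNAs usually carry no poly(A) tail. Instead they end just after a short stem-loop, which is bound by the stem-loop binding protein (*Slbp*), and are released by a cut that needs the U7 small nuclear RNP. Some of these genes can also give longer, polyadenylated transcripts. Because of this, the amount of histone mRNA that enters a library can depend on how RNA was selected, and whether these libraries were made by poly(A) selection or by removal of ribosomal RNA is not given in the sources used here. *Rn45s*, the 45S pre-ribosomal RNA, also has no poly(A) tail, and its share is therefore given beside the histone values.

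The stem-loops of 8 of the genes named here are shown because they are the feature that the members share and that sets most of their transcripts apart from other mRNAs. Each line runs 5′ to 3′ on the strand of the gene, with the 16 bases of the stem-loop in capitals and the flanking bases in lower case.
Hist1h1c: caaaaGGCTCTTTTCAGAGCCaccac
Hist2h2aa1: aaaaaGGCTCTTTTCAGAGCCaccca
Hist1h2bk: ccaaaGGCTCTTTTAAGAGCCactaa
Hist1h3b: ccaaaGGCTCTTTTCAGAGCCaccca
Hist1h3g: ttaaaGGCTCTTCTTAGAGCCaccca
Hist1h4c: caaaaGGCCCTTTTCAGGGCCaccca
Hist1h4h: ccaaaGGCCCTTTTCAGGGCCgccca
Hist2h4: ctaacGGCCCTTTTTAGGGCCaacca

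These sequences were read from GENCODE M21 transcripts on GRCm38. The 16 bases of *Hist1h1c* lie at chr13:23739512-23739527 (+), those of *Hist2h2aa1* at chr3:96246032-96246047 (+) and those of *Hist1h2bk* at chr13:22036300-22036315 (+). Those of *Hist1h3b* lie at chr13:23752820-23752835 (+), those of *Hist1h3g* at chr13:23535889-23535904 (+) and those of *Hist1h4c* at chr13:23698089-23698104 (-). Those of *Hist1h4h* lie at chr13:23531458-23531473 (+) and those of *Hist2h4* at chr3:96262939-96262954 (-). All lie in the 3′ untranslated region of an intronless transcript.

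A stem-loop was searched within 100 bases after the stop codon. It was defined as a 6-base perfect stem that starts with GG and ends with T, around a 4-base loop that starts with T. Only the 60 genes with a single-exon coding transcript were searched, so the rest of the 66 are not shown to lack it. The stem-loop was found in 43 genes, 21 to 58 bases after the stop codon. Of 58725 other protein-coding transcripts, 177 (0.301%) held such a 16-base element anywhere. The form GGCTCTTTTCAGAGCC was the most frequent, with 24 genes of the H1, H2A, H2B and H3 classes. The H4 genes had other letters in the stem, with 6 genes carrying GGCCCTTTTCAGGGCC, 2 carrying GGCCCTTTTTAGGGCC, 2 carrying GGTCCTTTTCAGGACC and 1 carrying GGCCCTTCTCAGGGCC. The annotation matters for these counts, since none of the 15 genes whose transcript held under 40 bases past the stop codon had a match, while 25 of the 26 genes with 100 or more bases past it did. The exception was *Hist2h2be*, an H2B gene with a long 3′ untranslated region, in which these letters were not in the window. For 42 of the 43 genes the RefSeq model ended within 50 bases of the stem-loop (median 5 bases), whereas the GENCODE transcript of 22 genes went on for 100 or more bases. The transcript length in the deposited files was within 10% of the RefSeq gene length for 58 of 65 genes that could be compared.

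The genes lie in 4 places in the genome. The Hist1 cluster on chromosome 13 held 52 of them within 2218.4 kb, the Hist2 cluster on chromosome 3 held 10 within 50.3 kb, Hist3 on chromosome 11 held 3 and *Hist4h4* on chromosome 6 stood alone. By RefSeq positions, an H2A and an H2B gene start back to back in 11 places, with 163 to 267 bases between them. The pseudogene *Hist3h2bb-ps* had no RefSeq match and could not enter this count, although it lies back to back with *Hist3h2a* in GENCODE. The 150 bases upstream of the start of 4 genes are shown as examples of promoters that differ in motif content. They are taken from RefSeq on GRCm38.p6, and capitals mark ATTTGCAT (the octamer bound by OCT1), TATAAA and CCAAT on either strand.
Hist1h2bk, chr13:22035671-22035820 (+): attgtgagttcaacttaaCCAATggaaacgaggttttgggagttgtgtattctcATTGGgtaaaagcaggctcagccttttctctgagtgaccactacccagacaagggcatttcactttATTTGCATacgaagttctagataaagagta
Hist1h2ab, chr13:23750938-23751087 (+): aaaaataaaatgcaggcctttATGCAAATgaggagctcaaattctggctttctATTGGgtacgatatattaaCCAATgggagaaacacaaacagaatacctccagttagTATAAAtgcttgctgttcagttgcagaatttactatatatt
Hist1h3b, chr13:23752195-23752344 (+): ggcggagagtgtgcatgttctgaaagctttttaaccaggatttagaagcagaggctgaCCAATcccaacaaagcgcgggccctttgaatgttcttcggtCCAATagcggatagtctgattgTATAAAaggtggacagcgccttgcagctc
Hist1h4h, chr13:23530894-23531043 (+): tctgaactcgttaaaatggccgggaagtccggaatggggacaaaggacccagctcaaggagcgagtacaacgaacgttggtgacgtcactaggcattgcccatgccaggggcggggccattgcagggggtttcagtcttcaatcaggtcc

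Promoters of 300 bases were matched for 60 of the 66 genes. The octamer ATTTGCAT was present in 12 of them, 6 of 17 H2A and 6 of 16 H2B promoters, against 1.74% of all 32851 promoters, and in 0 of 6 H1, 0 of 10 H3 and 0 of 11 H4 promoters. TATAAA was present in 33 of 60 against 13.62% of all promoters. CCAAT was present in 52 of 60 against 37.41%, in all H1, H2A, H2B and H3 promoters matched but in 3 of 11 H4 promoters. These motifs can overlap other motifs that were not searched, and a match does not show binding.

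The histone transcripts made up 0.569% and 0.880% of all expected counts for EV RV, and 0.666% and 1.25% for Tox RV. The 4 totals were 46989997, 74548723, 61442264 and 49012254. The *Rn45s* share was 24.7%, 11.97%, 10.3% and 7.14%. Thus the library with the highest *Rn45s* share, EV RV replicate 1, had the lowest histone share. The library with the lowest *Rn45s* share, Tox RV replicate 2, had the highest. Between the remaining libraries, EV RV replicate 2 had more of both than Tox RV replicate 1. Both are shares of the same total, so a higher share of one lowers the other by arithmetic. Without *Rn45s*, the histone share was 0.756%, 1.00%, 0.743% and 1.35%, and the lowest library was Tox RV replicate 1. Of 9 RNAs without a poly(A) tail that were tested (25 were listed and 17 were in the files), 0 passed an adjusted p of 0.05, and Tox RV replicate 2 was the highest library for 0 of the 9. *Rn45s* had the lowest fold change among them (log2 fold change -1.23 ± 0.42 SE, edgeR adjusted p = 0.897), while *Rpph1*, the RNA of ribonuclease P, was at 8184, 7462, 8498 and 8088 CPM. Both Tox RV libraries were below both EV RV libraries for 4 of the 9, beside 17.4% of all genes tested. These were *Rn45s*, *Snord17* (log2 fold change -0.83), *Terc* (-0.61) and *Snora23* (-0.46). An unadjusted edgeR p below 0.05 was found for 2 of the 9, beside 3.62% of all genes tested. A log2 fold change above 0 was found for 3 of the 9. The part of RNA selection in the histone values was not tested. *Tox* served to check the labels. It was at 11.7 and 5.73 CPM in EV RV and 121 and 99.9 CPM in Tox RV, and the groups did not overlap. Its log2 fold change was 3.68 ± 0.38 (SE), with an edgeR adjusted p of 0.490.

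Of 6 CD4 T cell markers, 5 were tested, and *Trac* was not in the files. *Cd4* and *Cd28* were present in every library, at 324 to 479 and 355 to 565 CPM, as were *Cd3g* (248 to 434 CPM) and *Lat* (324 to 406 CPM). *Cd3e* was at 219 and 71.9 CPM in EV RV and 91.2 and 71.6 CPM in Tox RV, and was thus highest in EV RV replicate 1. Of 4 B cell markers, 2 passed the filter on low counts (*Cd79a* and *Cd79b*, at 0.251 to 1.27 CPM), and *Ms4a1* did not. Of 5 myeloid markers, 3 passed it (*Fcer1g*, *Itgam* and *Csf1r*, at 0.142 to 0.711 CPM), while *Lyz2* and *Tyrobp* did not. Of 5 CD8 T and NK cell markers, 4 were tested. They summed to 55.5 and 16.3 CPM in EV RV and 32.2 and 11.1 CPM in Tox RV, with *Ncr1* below the filter. The sum, carried by *Klrk1* and *Klrd1*, was lowest in the 2 libraries with the highest histone level, whereas *Cd8a* was at 1.54 and 2.14 CPM in EV RV and 1.56 and 1.75 CPM in Tox RV. The part of these markers in the histone level was not tested.

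The level of the histone genes was determined next. Counts were scaled to counts per 1000000 (CPM) by the TMM method, and levels of different genes were compared per kilobase of effective transcript length. *Hist2h2aa1*, an H2A gene, had the highest mean level per kilobase, at 941, 1267, 1123 and 2090 CPM per kb. It was followed by the H4 genes *Hist1h4c*, *Hist1h4h* and *Hist1h4m*, whose means over 4 libraries were 1075, 1065 and 1061 CPM per kb. *Hist2h2aa1* was above these 3 genes in each of the 4 libraries, but in EV RV replicate 1 the H4 gene *Hist1h4d* was higher still, at 1014 CPM per kb. The order of the 3 H4 genes among themselves changed from library to library.

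*Hist1h1c*, which encodes the linker histone H1.2, was highest among H1 genes, at 834, 745, 698 and 1029 CPM per kb. *Hist1h1d* and *Hist1h1e*, which encode H1.3 and H1.4, had means of 533 and 423 CPM per kb. The leading H2B genes were *Hist1h2bk*, *Hist2h2bb* and *Hist1h2be* (means of 724, 636 and 584 CPM per kb). The leading H3 genes were *Hist1h3e*, *Hist1h3b* and *Hist1h3c* (means of 688, 656 and 510 CPM per kb). After *Hist2h2aa1*, the H2A genes *Hist1h2ab* and *Hist1h2ap* had means of 391 and 382 CPM per kb. Within each library, *Hist1h1c* was above *Hist1h1d*, *Hist2h2aa1* above *Hist1h2ab*, *Hist1h3b* above *Hist1h3c*, and the 3 H2B genes stood in the order given. The order of *Hist1h1d* and *Hist1h1e*, of *Hist1h3e* and *Hist1h3b*, and of *Hist1h2ab* and *Hist1h2ap* was turned in 1 library each.

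In all, 52 of the 66 genes had a mean above 100 CPM per kb, and the 10 highest made up 40.1% of the summed level per kb. At the other end, 5 genes were below 10 CPM per kb. They included *Hist1h1t*, a linker histone gene known for its expression in the testis, with 19, 44, 17 and 20 counts, and *Hist2h2be*. The other 3 (*Hist1h2bq*, *Hist1h2br* and *Hist2h3c1*, named for their low level) shared 91.8%, 83.0% and 100% of their 150-base windows with transcripts of other genes.

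**Figure D1:**
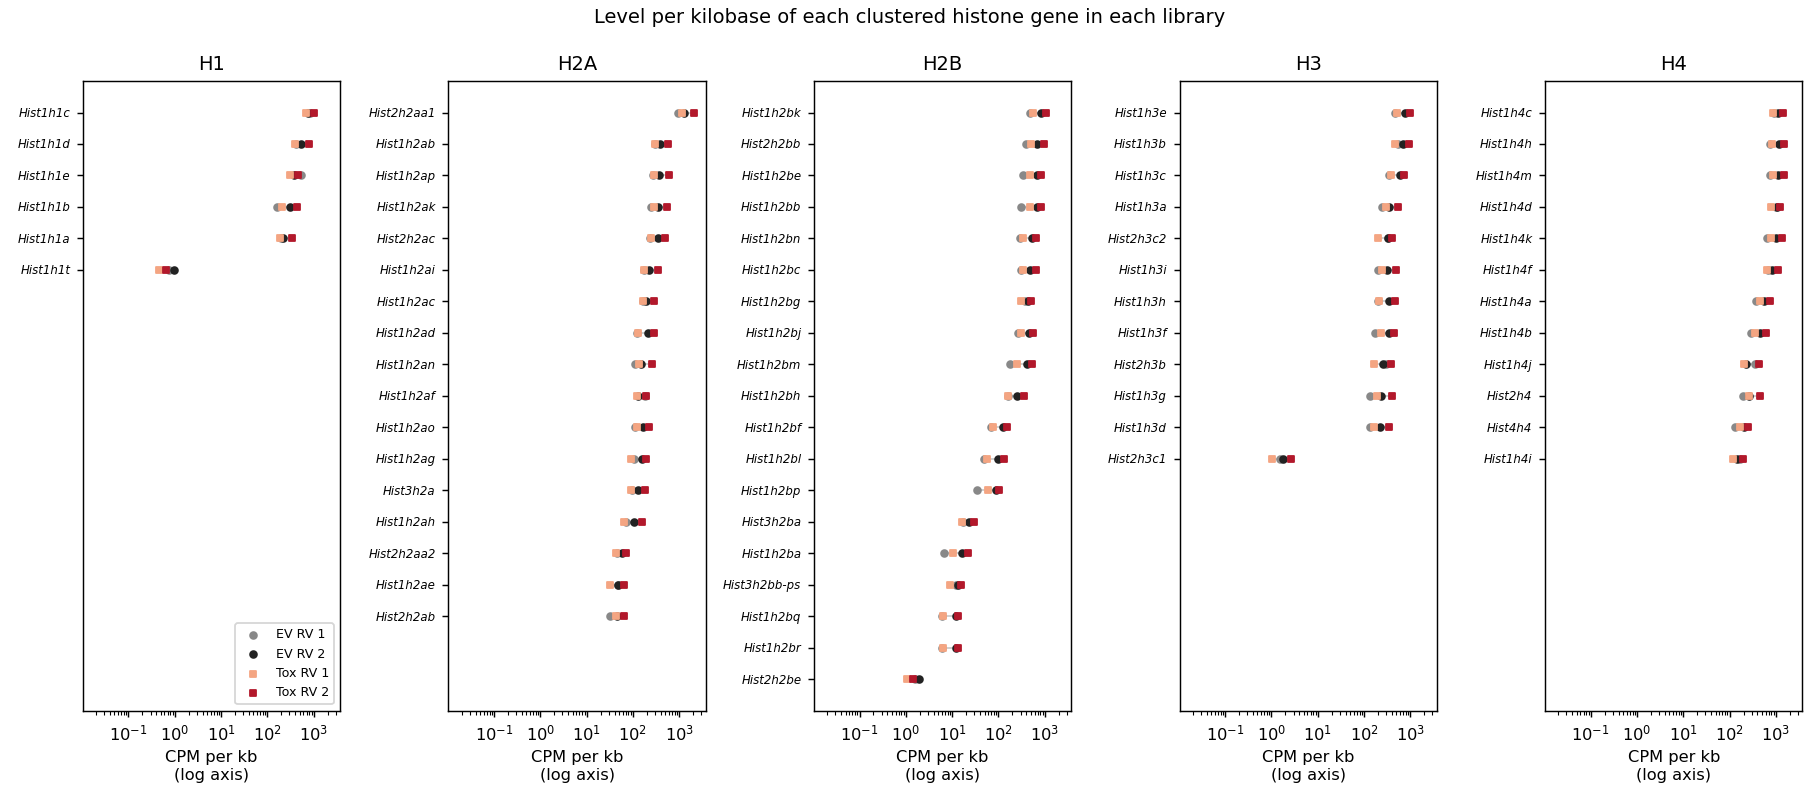
Level of each of the 66 genes in CPM per kilobase of effective length on a log axis, with 1 panel per histone class and 1 point per library (circles, EV RV; squares, Tox RV). Tox RV replicate 2 is the rightmost point for 63 of 66 genes, and *Hist2h2aa1* has the highest mean.

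The central comparison asked whether these genes differed between Tox RV and EV RV. The summed level of the 66 genes was 6340 and 8618 CPM in EV RV and 6468 and 11843 CPM in Tox RV. Tox RV replicate 1 was thus within the range of the EV RV libraries, and Tox RV replicate 2 above it. The means were 7479 ± 1611 CPM (SD, n = 2) in EV RV and 9156 ± 3800 CPM (SD, n = 2) in Tox RV, a log2 ratio of 0.29, against a within-group SD of 0.489 on the log2 scale. The difference between groups was therefore smaller than the spread between replicates.

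The same held in each class. The H1 genes summed to 1310 and 1327 CPM in EV RV and 1092 and 1861 CPM in Tox RV (log2 ratio of means 0.16). The H2A genes summed to 1178 and 1568 CPM in EV RV and 1258 and 2414 CPM in Tox RV (log2 ratio 0.42). In H1 both EV RV libraries lay between the Tox RV libraries, and in H2A Tox RV replicate 1 lay between the EV RV libraries.

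The H2B genes summed to 1170 and 2031 CPM in EV RV and 1381 and 2578 CPM in Tox RV (log2 ratio 0.31). The H3 genes summed to 1147 and 1664 CPM in EV RV and 1161 and 2288 CPM in Tox RV (log2 ratio 0.29). The H4 genes summed to 1534 and 2029 CPM in EV RV and 1577 and 2702 CPM in Tox RV (log2 ratio 0.26). As in H2A, Tox RV replicate 1 lay between the EV RV libraries in these 3 classes. The within-group SD of the class sums was 0.385 (H1) to 0.601 (H2B) on the log2 scale, above the log2 ratio of each class in this comparison.

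**Figure D2:**
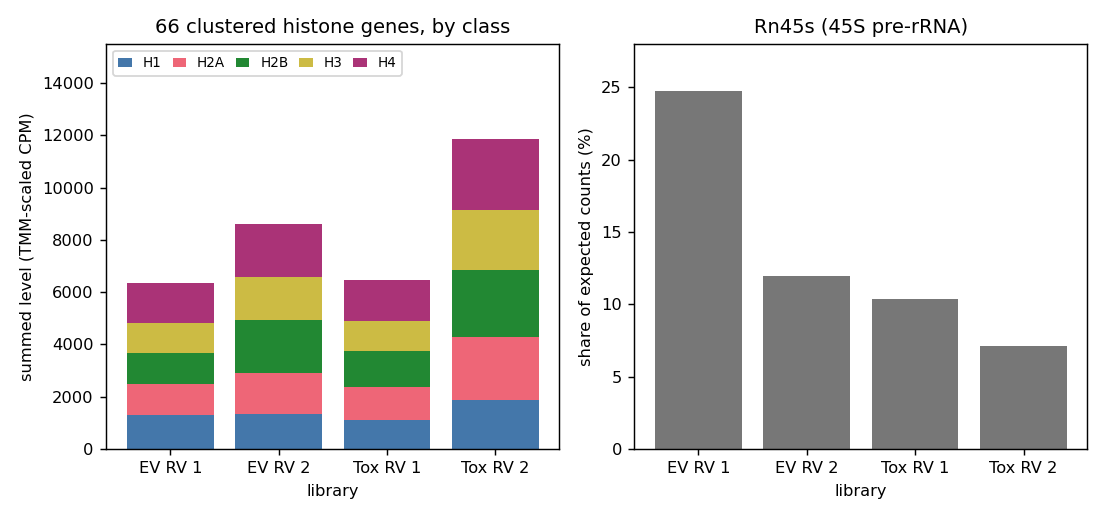
Left, summed level of the 66 genes in each library in TMM-scaled CPM, stacked by class. Right, share of all expected counts taken by *Rn45s* in the same libraries. The histone sum runs from 6340 (EV RV 1) to 11843 CPM (Tox RV 2), while the *Rn45s* share runs from 24.7% to 7.14% between the same libraries.

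All 66 genes passed the filter of the edgeR fit, which was made over 14143 genes. None passed an adjusted p of 0.05 (quasi-likelihood test with Benjamini-Hochberg adjustment), where 0% of all genes tested did. At an unadjusted p below 0.05 there were also 0 histone genes, beside 3.62% of all genes. DESeq2 called 0 histone genes and 0.121% of 18183 genes, with 1 histone gene below an unadjusted p of 0.05 beside 3.40% of the same genes. The lowest adjusted p among the 66 was 0.897 in edgeR. Most fold changes pointed upwards nonetheless, with a log2 fold change above 0 for 57 of the 66 genes, against 50.4% of all genes tested. The median log2 fold change was 0.31 (range -0.67 to 0.69), beside 0.00 over all genes tested, and the standard errors of single genes ran from 0.23 to 0.53.

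By class, the log2 fold change was above 0 for 4 of 6 H1, 16 of 17 H2A, 17 of 19 H2B, 10 of 12 H3 and 10 of 12 H4 genes. The class medians were 0.22, 0.36, 0.29, 0.30 and 0.31. The upward direction of these values rested on Tox RV replicate 2 and, to a lesser extent, on EV RV replicate 1. Without that library, 6 of 66 genes had a log2 fold change above 0 and the median was -0.23, while without Tox RV replicate 1 the count was 64 and the median 0.67. Without EV RV replicate 1 the count was 40 and the median 0.03, and without EV RV replicate 2 they were 57 and 0.69. Each of these fits left 1 library in 1 of the groups.

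**Figure D3:**
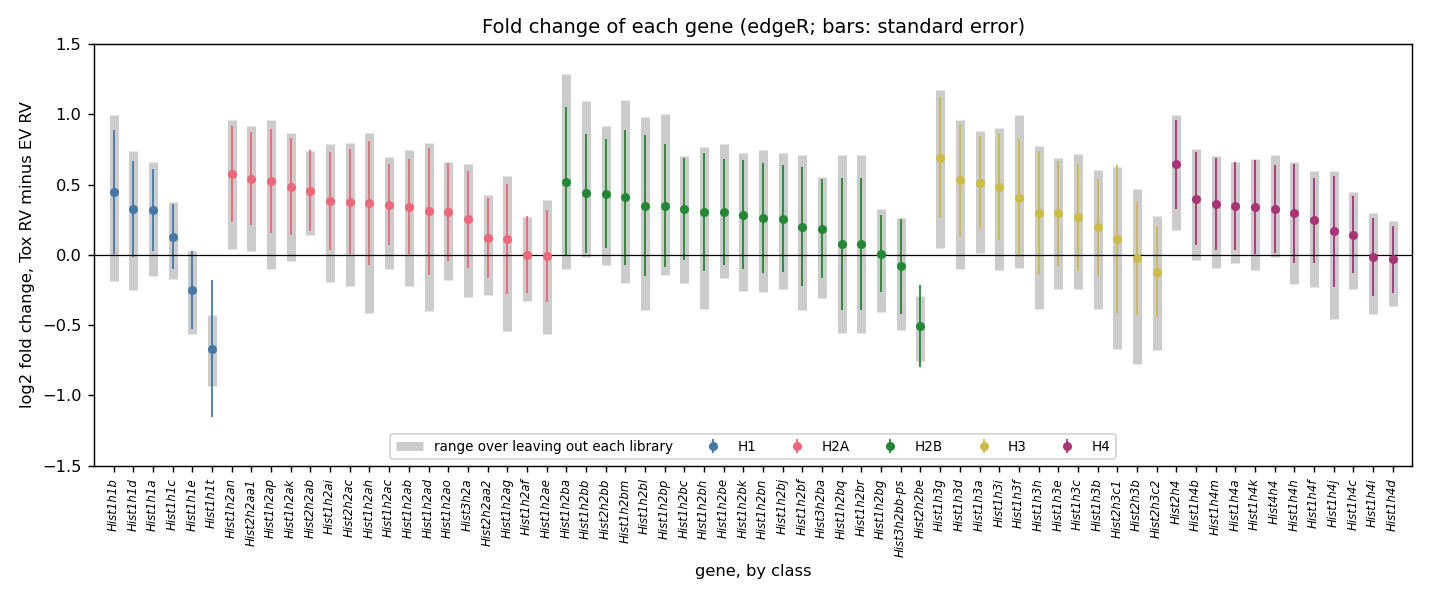
Log2 fold change (Tox RV minus EV RV) of each gene from edgeR with its standard error, sorted within each class. The grey bars give the range when each library was left out in turn, and for most genes they cross 0.

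The genes with the highest fold changes were *Hist1h3g* and *Hist2h4*. *Hist1h3g*, an H3 gene, was at 44.99 and 79.9 CPM in EV RV and 64.5 and 137 CPM in Tox RV. The groups overlapped, and the log2 fold change was 0.69 ± 0.43 (SE, edgeR adjusted p = 0.897). *Hist2h4*, an H4 gene, was at 46.6 and 62.0 CPM in EV RV and 61.2 and 109 CPM in Tox RV. Tox RV replicate 1 was just below EV RV replicate 2, and the log2 fold change was 0.64 ± 0.31 (SE, edgeR adjusted p = 0.897). *Hist2h4* was the histone gene below an unadjusted p of 0.05 in DESeq2, where its adjusted p was 0.9995.

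*Hist1h2an*, an H2A gene, was at 33.4 and 45.2 CPM in EV RV and 40.4 and 76.7 CPM in Tox RV (log2 fold change 0.57 ± 0.34 SE). *Hist2h2aa1* was at 383 and 516 CPM in EV RV and 457 and 851 CPM in Tox RV (0.54 ± 0.33 SE). *Hist1h3d*, an H3 gene, was at 48.6 and 77.6 CPM in EV RV and 58.7 and 124 CPM in Tox RV (0.53 ± 0.40 SE). In all of these, Tox RV replicate 1 lay between the EV RV libraries. The edgeR adjusted p was 0.897 for each of the 3.

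The lowest fold changes were found for *Hist1h1t* and *Hist2h2be*. *Hist1h1t* was at 0.4503 and 0.578 CPM in EV RV and 0.269 and 0.385 CPM in Tox RV (log2 fold change -0.67 ± 0.49 SE, edgeR adjusted p = 0.897). *Hist2h2be* was at 3.98 and 4.74 CPM in EV RV and 2.58 and 3.59 CPM in Tox RV (log2 fold change -0.51 ± 0.29 SE, edgeR adjusted p = 0.897). These were the 2 genes of the 66 in which the higher Tox RV library was under the lower EV RV library, which was the case for 17.4% of all genes tested. The reverse, with each Tox RV library above each EV RV library, was seen in 0 of the 66, beside 18.6% of all genes tested. Both genes were measured at low depth, with 163 to 361 counts per library for *Hist2h2be*.

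*Hist1h1e* was at 342 and 239 CPM in EV RV and 196 and 293 CPM in Tox RV, with EV RV replicate 1 the highest library (log2 fold change -0.25 ± 0.28 SE, edgeR adjusted p = 0.902). *Hist2h3c2*, an H3 gene, was at 162 and 163 CPM in EV RV and 102 and 198 CPM in Tox RV (-0.12 ± 0.32 SE). *Hist3h2bb-ps*, an H2B pseudogene, was at 3.86 and 4.32 CPM in EV RV and 2.81 and 4.93 CPM in Tox RV (-0.08 ± 0.34 SE). In the last 2 genes the EV RV libraries lay between the Tox RV libraries, and without Tox RV replicate 1 their log2 fold changes were 0.28 and 0.26.

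Among the genes named for their level, *Hist1h1c* was at 480 and 429 CPM in EV RV and 402 and 593 CPM in Tox RV (log2 fold change 0.13 ± 0.23 SE). *Hist1h4h* was at 215 and 332 CPM in EV RV and 237 and 435 CPM in Tox RV (0.30 ± 0.35 SE). *Hist1h2bk* was at 169 and 288 CPM in EV RV and 191 and 367 CPM in Tox RV (0.29 ± 0.39 SE). For *Hist1h1c* both EV RV libraries lay between the Tox RV libraries, and for the others Tox RV replicate 1 lay between the EV RV libraries. The other genes of this kind (*Hist1h1d*, *Hist1h2ab*, *Hist1h2ap*, *Hist2h2bb*, *Hist1h2be*, *Hist1h3e*, *Hist1h3b*, *Hist1h3c*, *Hist1h4c* and *Hist1h4m*) had log2 fold changes of 0.14 (*Hist1h4c*) to 0.52 (*Hist1h2ap*), with adjusted p-values of 0.897 or more in edgeR.

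The main pattern was instead a difference between the libraries of each group. Tox RV replicate 2 was the highest library for 63 of the 66 genes, as it was for 21.9% of all genes tested. The lowest library was EV RV replicate 1 for 40 genes and Tox RV replicate 1 for the other 26, and never EV RV replicate 2 or Tox RV replicate 2. Over all genes tested, EV RV replicate 1 was the lowest library for 37.0% and Tox RV replicate 1 for 18.5%. The exceptions at the top were *Hist1h1e* (EV RV replicate 1 highest) and *Hist1h1t* and *Hist2h2be* (EV RV replicate 2 highest). Tox RV replicate 2 exceeded Tox RV replicate 1 in 66 of 66 genes, by a median log2 ratio of 0.91 (0.48 to 1.31). EV RV replicate 2 exceeded EV RV replicate 1 in 60 of 66 genes, by a median of 0.53 (-0.65 to 1.25). Over all genes tested, both medians were 0.00.

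**Figure D4:**
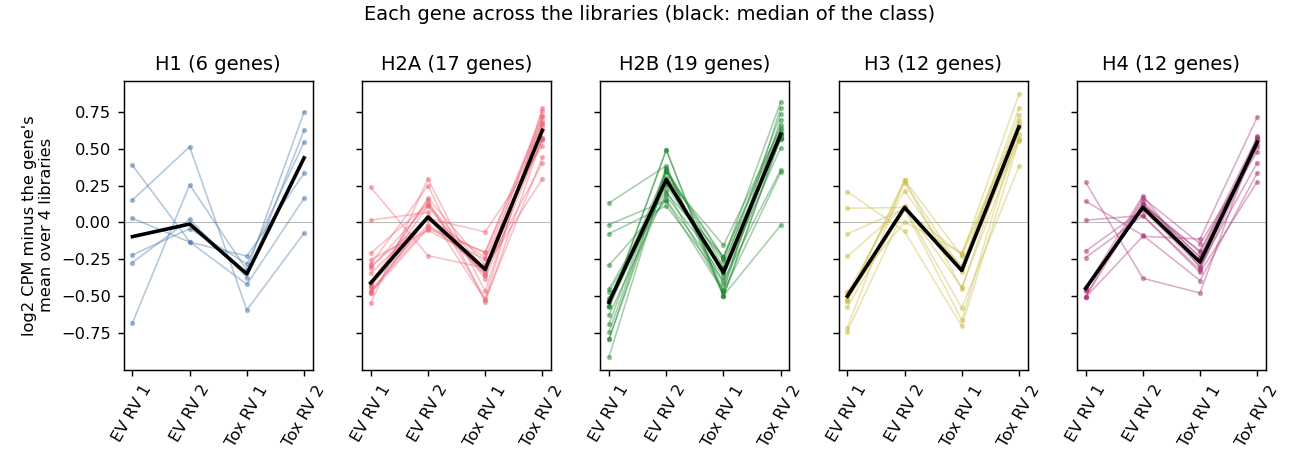
Log2 CPM of each gene minus its own mean over the 4 libraries, with 1 line per gene, 1 panel per class and the class median in black. Tox RV 2 is the highest library in every class median, and Tox RV 1 lies below EV RV 2 for all 66 genes.

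The classes differed in this respect in EV RV. The median log2 ratio of EV RV replicate 2 to replicate 1 was 0.83 for H2B and 0.65 for H3, but 0.49 for H4, 0.43 for H2A and 0.23 for H1. As a result, H1 made up 20.7% of the summed histone CPM in EV RV replicate 1 and 15.4% to 16.9% in the other libraries, and H2B 18.4% in EV RV replicate 1 and 21.3% to 23.6% in the others. In Tox RV, the class medians of replicate 2 to replicate 1 ran from 0.70 (H1) to 1.01 (H3). The 6 genes in which EV RV replicate 2 did not exceed replicate 1 were *Hist1h1c*, *Hist1h1e*, *Hist1h2af*, *Hist1h4i*, *Hist1h4j* and *Hist2h3b*, named here after their values were seen. In *Hist1h4j*, the largest difference of this kind, the level was 56.5 and 36.0 CPM in EV RV and 33.6 and 70.1 CPM in Tox RV.

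Fold changes were also set side by side for the back-to-back pairs. *Hist2h2ac* and *Hist2h2be*, which start 191 bases apart, had log2 fold changes of 0.38 and -0.51, while *Hist1h2bk* and its partner *Hist1h2ah*, 177 bases apart, had 0.29 and 0.37. In 10 of the 11 pairs, the 2 log2 fold changes were apart by less than the larger of their standard errors. The exception was the pair of *Hist2h2ac* and *Hist2h2be*. H2A fold changes ran from -0.01 to 0.57 (SE 0.28 to 0.45) and H2B ones from -0.51 to 0.52 (SE 0.27 to 0.53). Genes that are not neighbours can therefore also be this close, and such pairs were not counted. *Hist1h2bq* and *Hist1h2br* are both among these pairs and have the same counts. Partners outside the rule for named genes were picked from the list of pairs.

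The annotated end of the transcript went along with a difference among the members. The 21 genes whose GENCODE transcript ended under 100 bases after the stem-loop had a median log2 ratio of EV RV replicate 2 to replicate 1 of 0.60 (0.28 to 1.15), and all 21 had a log2 fold change above 0 (median 0.31). The 22 genes whose transcript goes on for 100 or more bases had a median of 0.29 (-0.65 to 1.00), and 16 of 22 had a log2 fold change above 0 (median 0.18). Between the Tox RV libraries the medians were 0.90 and 0.85. This split is a description without a test, and the classes are not evenly divided between its sides (0 H1 and 8 H2A genes against 4 and 3, for example). H2A and H2B genes with the octamer (12 genes) and without it (21 genes) had median log2 fold changes of 0.36 and 0.31, and Tox RV replicate 2 was the highest library for all 33.

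Several of these genes cannot be told apart by reads of this length. RSEM's effective lengths correspond to fragments of 150 bases, and 50 of the 66 genes shared at least 1 window of 150 bases with a transcript of another gene, 24 of them over 50% of their windows. *Hist2h2aa1* and *Hist2h2aa2* have identical coding sequences, yet *Hist2h2aa2* was given 20.4, 25.7, 18.9 and 31.1 CPM, far below the values of *Hist2h2aa1*. All windows of *Hist2h2aa2* in the part held by both GENCODE and RefSeq occur in another transcript. Over that part the division between the pair is an estimate of RSEM's model. The RefSeq model of *Hist2h2aa2*, of 596 bases, reaches beyond it, and the rest was not examined. *Hist1h2bq* and *Hist1h2br* were given the same expected counts in each library (492.08, 1850.14, 773.79 and 1335.80) and carry 1 measurement between them. *Hist2h3c1*, all of whose windows occur elsewhere, was given 34.33, 68.66, 34.33 and 68.67. *Hist1h1e* and *Hist1h2be* overlap on the same strand in GENCODE, whereas their RefSeq intervals do not overlap. In addition, 20 genes, among them all 17 H2A genes, overlap a GENCODE gene on the other strand, and without a stated use of strand the reads of such a pair cannot be told apart.

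The 12 H4 genes had 12 different coding sequences, which were 85.4% to 98.4% identical between pairs of equal length, and the H3 genes were 93.6% to 99.8% identical. The 16 genes that shared no window had a median log2 fold change of 0.32 with 11 of 16 above 0, beside 0.31 and 46 of 50 for the others, and Tox RV replicate 2 was highest in 13 of 16. When the counts were summed within each class before the fit, the log2 fold changes were 0.16 (H1), 0.42 (H2A), 0.31 (H2B), 0.29 (H3) and 0.26 (H4), and 0 of the 5 sums were called.

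The genes that work with the histones were compared with them. Of 14 genes for transcription and processing of histone pre-mRNA, 0 passed an adjusted p of 0.05 in either direction, 10 had a log2 fold change above 0, and the median was 0.14. *Slbp* was at 84.9 and 143 CPM in EV RV and 110 and 159 CPM in Tox RV, with the same order of libraries as the summed histone genes. The 2 genes of this list with the highest CPM, *Srrt* (ARS2) and *Sympk* (symplekin), had log2 fold changes of 0.26 ± 0.18 and -0.10 ± 0.19 (SE). Of 18 histone chaperones, 0 passed, 12 were above 0 and the median was 0.03. The chaperones *Nap1l1* and *Rbbp7* had log2 fold changes of -0.02 ± 0.16 and 0.32 ± 0.25 (SE).

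Of 11 replication-independent histone genes, most of whose transcripts are polyadenylated and are also made outside S phase, 10 were tested, 0 passed, 8 were above 0 and the median was 0.08. *H3f3b*, which encodes H3.3, was at 483 and 596 CPM in EV RV and 601 and 667 CPM in Tox RV, with a log2 fold change of 0.23 ± 0.18 (SE). *H2afy*, which encodes macroH2A1, was at 265 and 287 CPM in EV RV and 274 and 312 CPM in Tox RV (0.09 ± 0.17 SE). Between Tox RV libraries the median log2 ratio of replicate 2 to replicate 1 was 0.26 in this list, against 0.91 in the clustered genes. Within the list this ratio ran from -0.02 (*H2afj*) to 0.84 (*H2afx*), with *H2afz* at 0.63 and *Cenpa* at 0.53. *H2afy2* was below the filter.

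DNA replication genes were taken as markers of S phase. Of 30 such genes, 0 passed, 22 had a log2 fold change above 0 and the median was 0.11. Their sum was 2758 and 4292 CPM in EV RV and 3034 and 4407 CPM in Tox RV, lowest in the same library as the histone sum and highest in the same library. *Pcna*, the sliding clamp of the replication fork, was at 255 and 443 CPM in EV RV and 345 and 474 CPM in Tox RV. *Mcm6*, a subunit of the replicative helicase, was at 346 and 446 CPM in EV RV and 324 and 448 CPM in Tox RV. Relative to this sum, the histone sum was 2.30 and 2.01 for EV RV, against 2.13 and 2.69 for Tox RV, so Tox RV replicate 2 stayed above the other libraries by this ratio and the order of the EV RV libraries was turned.

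**Figure D5:**
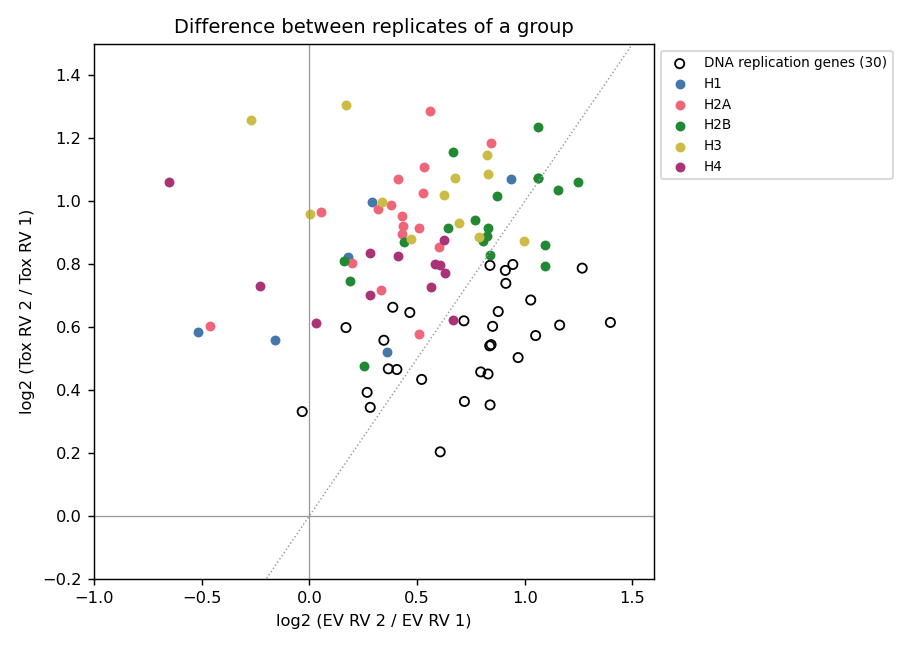
Log2 ratio of replicate 2 to replicate 1 in EV RV (horizontal) and Tox RV (vertical) for each histone gene, coloured by class, and for 30 DNA replication genes (open circles). All histone genes lie above 0 on the vertical axis (median 0.91), and the replication genes have medians of 0.83 in EV RV and 0.57 in Tox RV.

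The 2 lists thus differed in which pair of libraries was further apart. The replication genes had a median log2 ratio of replicate 2 to replicate 1 of 0.83 in EV RV and 0.57 in Tox RV, while the histone genes had 0.53 in EV RV and 0.91 in Tox RV. This difference between lists was not tested. In bulk RNA, more cells in S phase and more histone mRNA per cell cannot be told apart.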

How the data were processed

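RNA-seq reads were aligned by the authors with bowtie to mm10 transcripts and quantified with RSEM, with 1 library per file. The deposited expected counts are RSEM's estimated counts per gene and are not normalized. The deposited TPM values, RSEM's transcripts per 1000000, were used in 2 alternatives. Whether strand was used in counting is not given in the sources used here. A table of the whole series was not used.

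Expected counts were rounded and fitted in R 4.3.3 with edgeR 4.0.16 (filterByExpr minimum count 10, which left 14143 genes, TMM scaling, glmQLFit and glmQLFTest, Benjamini-Hochberg adjustment over all genes tested, no covariate). DESeq2 1.42.0 and limma 3.58.1 served as alternatives, and both count tests were tested on simulated data. Sums over classes were made from TMM-scaled CPM. Depth was 46989997 to 74548723 expected counts per library. P-values measure the spread between 2 libraries per group, which came from separate mice.

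The members and gene lists were chosen with earlier results of these data known. Genes were named by a rule: the 3 of each class with the highest level per kb, the 5 highest and 5 lowest fold changes, any member called, copies of a named gene, and the 2 genes of each list with the highest CPM. Others were chosen after their values were seen. Sequences came from GENCODE M21 and RefSeq (GRCm38.p6), matched through the accessions in the files for 65 of 66 genes.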

Additional observations from a re-analysis of the deposited data

How the results depend on the processing

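The count of histone genes past an adjusted p of 0.05 was 0 under every alternative that was run. Under the alternatives that kept all 4 libraries, 51 to 63 genes had a log2 fold change above 0, with medians of 0.18 (limma on TPM) to 0.41 (scaling by library totals, which moved the median of all genes to 0.12). In the fits without 1 library, the count above 0 ranged from 6 to 64 and the median from -0.23 to 0.69. The log2 ratio of the summed level then ranged from -0.21 to 0.66 over all members, from -0.27 to 0.49 in H1, -0.12 to 0.81 in H2A, -0.21 to 0.77 in H2B, -0.27 to 0.70 in H3 and -0.17 to 0.59 in H4. The negative ends came from leaving out Tox RV replicate 2. Over all genes tested, edgeR with all 4 libraries called 0, DESeq2 called 22, the fit with no filter on low counts called 22, and the fits without 1 library called 1 to 600 (1 without EV RV replicate 1, 600 without EV RV replicate 2, 12 without Tox RV replicate 1 and 23 without Tox RV replicate 2). The cause of these differences was not tested. With the replicate number as a block, 16 genes were called over all genes and 0 histone genes, and the median of the histone genes was 0.26. The differences between replicates 2 and 1 correlated at 0.38 across 14143 genes between the groups, and with only 2 numbers this does not show that the numbers pair the libraries. With 2 libraries per group the standard errors of the histone genes (0.23 to 0.53 on the log2 scale) limit which differences could be detected.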
